A study of Mus musculus with 7 samples.

Results

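Integrin and laminin subunits were described on 7 mouse expression arrays. The members were the 38 genes whose symbol is Itga or Itgb followed by a number or letter (27 integrin genes), or Lama, Lamb or Lamc followed by a number (11 laminin genes); Itgb1bp1, Itgb1bp2, Itgb3bp and Itgbl1 do not belong to them. Through RefSeq accessions, 48 of 55681 probes were assigned to 36 of the 38 genes. Of these, 33 genes, 22 integrin and 11 laminin, were among the 18022 genes tested, each with a probe flagged well above background on 3 or more of the 7 arrays. By its title, the study concerned β-catenin activation in the dermal sheath, the mesenchymal layer around the hair follicle, with hair outgrowth and skin fibrosis. The cells came from dorsal skin of mice at postnatal day 15. In both groups alike they were sorted for YFP and against 3 surface proteins: CD34, integrin α8 (ITGα8) and alkaline phosphatase (ALP). The control group held 3 arrays from 4 mice, with array 3 made from 2 mice. The β-catenin activation group, labelled cΔex3, held 4 arrays from 6 mice, with arrays 2 and 3 made from 2 mice each and arrays 1 and 4 from 1 mouse each. An allele of Ctnnb1 without exon 3 is commonly used to make a β-catenin that is not degraded; the Cre line, the strain and the full genotypes of the groups are not given in the sources used here.

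Laminins are secreted trimers of an α, a β and a γ chain and form, with collagen IV, nidogen and perlecan, the sheet called the basement membrane. Integrins are transmembrane receptors, each an α and a β subunit, that bind laminins, collagens, other matrix proteins or counter-receptors on cells and link them through talin and other adaptors to actin. In skin, laminins of epithelial type anchor the epidermis and the follicle epithelium, and laminins made by mesenchymal, vascular and fat cells surround those cells. The sort used the product of a member, Itga8, as a mark of cells to be left out.

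Levels are log2 of the processed signal minus the array's 75th percentile, so that 0 is the 75th percentile and 1 unit is a doubling; levels of different genes, read by different probes, are not set against each other. The 75th percentile was 756 to 907 on the control and 1348 to 2160 on the cΔex3 arrays. Spots well above background made up 69.3% to 71.5% on the control and 69.0% to 82.7% on the cΔex3 arrays. Markers of cells other than the labelled ones were high on the arrays. Hepatocyte (liver cell) markers, of which Cyp2e1 and Apoa2 were the brightest, had a summed signal of 12.26 to 12.65 (log2 of the sum in units of the 75th percentile) on the control arrays and 6.10 to 7.98 on the cΔex3 arrays, and 14 of 14 were lower on the latter. Adipocyte markers, led by Pnpla2 and Cfd, stood at 5.53 to 6.97 on control and 9.78 to 10.86 on cΔex3 arrays, with 10 of 10 higher. Markers of mesothelium, the lining of body cavities, led by Msln and Krt19, stood at −1.33 to 0.55 and 3.87 to 5.34, with 6 of 6 higher and Upk1b well above background on no control array, and fibroblast markers, led by Dcn and Col1a2, at 6.96 to 7.25 and 8.21 to 8.96, with 8 of 8 higher. Markers that the dermal sheath shares with smooth muscle, led by Tagln and Myl9, were well above background on every array for 8 of 8 genes. They summed to 4.61 to 5.16 on control and 6.60 to 7.74 on cΔex3 arrays, with 6 of 8 higher. Endothelial markers (Kdr and Cdh5 the brightest) counted 6 higher and 1 lower among 8, at 5.06 to 5.30 and 4.46 to 5.99, and leukocyte markers (Csf1r and Cd52) 2 higher and 1 lower among 10, at 6.55 to 6.96 and 6.95 to 8.21. Keratinocyte markers (Trp63 and Dsp) were higher for 1 of 9, at 2.91 to 3.20 and 2.82 to 4.44, the top value being that of cΔex3 array 4. Schwann cell markers (Mbp among the brightest) stood at 6.13 to 6.28 and 6.16 to 7.12, and platelet markers (Pf4 the brightest) at 1.14 to 1.36 and 3.94 to 5.13. Cd34, whose protein the sort excluded, stood at 0.61, 0.12 and 0.94 on control and 5.61, 5.59, 5.64 and 4.72 on cΔex3 arrays. Alpl, which encodes the sorted phosphatase, read 1.78, 1.63 and 2.49 against −0.39, −0.62, 0.31 and 3.49, highest on cΔex3 array 4. Ctnnb1, the β-catenin gene, read 3.47, 3.45 and 3.47 on control and 3.49, 3.39, 3.42 and 3.47 on cΔex3 arrays; whether its probe lies in exon 3 was not determined, so it does not check the allele. Groups are called by their labels throughout, and the share of cell makeup and of the allele in a difference cannot be told apart. Whether the arrays carry the RNA their labels name was not tested, and every difference below is one between labelled groups.

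**Figure D1:**
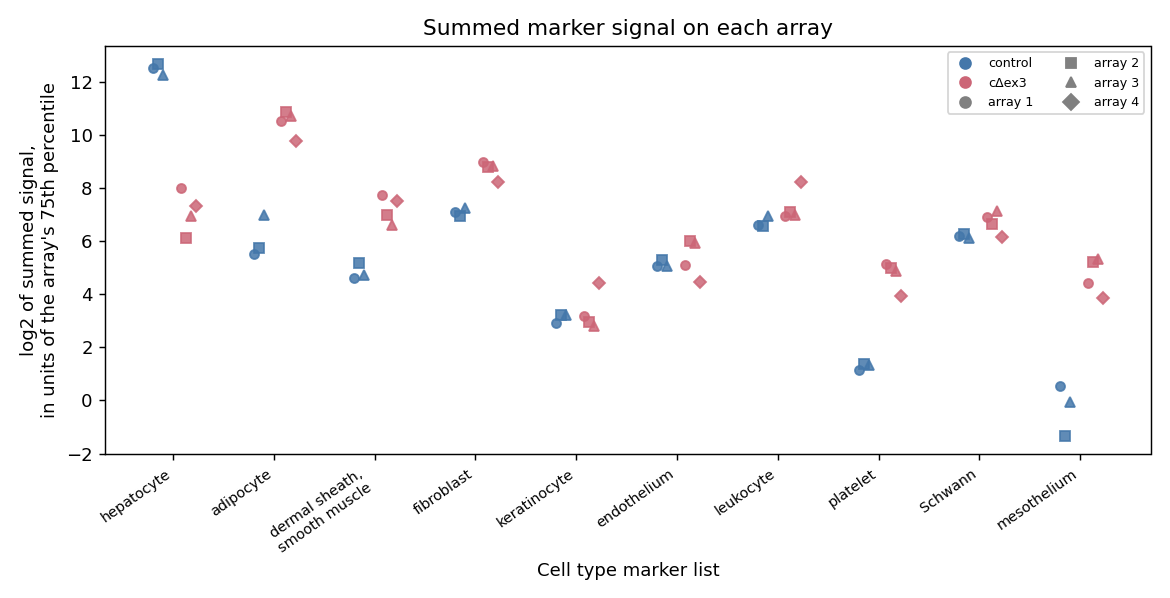
Summed signal of 10 cell type marker lists on each array (vertical axis, log2 of the sum over a list's tested genes in units of the array's 75th percentile); each point is an array, blue for control and red for cΔex3. The control arrays lie above all cΔex3 arrays for hepatocyte markers. They lie below them for adipocyte, fibroblast, mesothelial and platelet markers and for those of dermal sheath and smooth muscle.

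Integrin and laminin genes differed mostly towards higher levels on the cΔex3 arrays. Of the 22 integrin genes tested, 11 were higher, 2 lower and 9 did not pass the threshold (limma, adjusted p under 0.05 over all 18022 genes, n = 3 and 4), with a median difference of 0.97. Of the 11 laminin genes, 8 were higher and 3 did not pass, with a median of 2.84; 0 were lower by limma (0 also at an unadjusted p under 0.05), and by limma 2 were lower when cΔex3 array 4 was left out. The background was large: 24% of all genes tested were called higher and 29% lower, 53.1% in either direction, with a median difference of −0.08. The integrin share called higher was 50% and the laminin share 72.7%. All cΔex3 arrays lay above all control arrays for 9 integrin and 8 laminin genes, and below them for 3 integrin genes. Itgad is in both counts of higher integrin genes, although it passed the background filter through its cΔex3 arrays. Of all genes, 26.1% lay wholly above and 32.6% wholly below, 58.7% together. Since these are bulk RNA samples, fewer cells of a type and less RNA per cell cannot be told apart. The labels call the arrays biological replicates from numbered mice, so animals as well as arrays add to the spread.

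**Figure D2:**
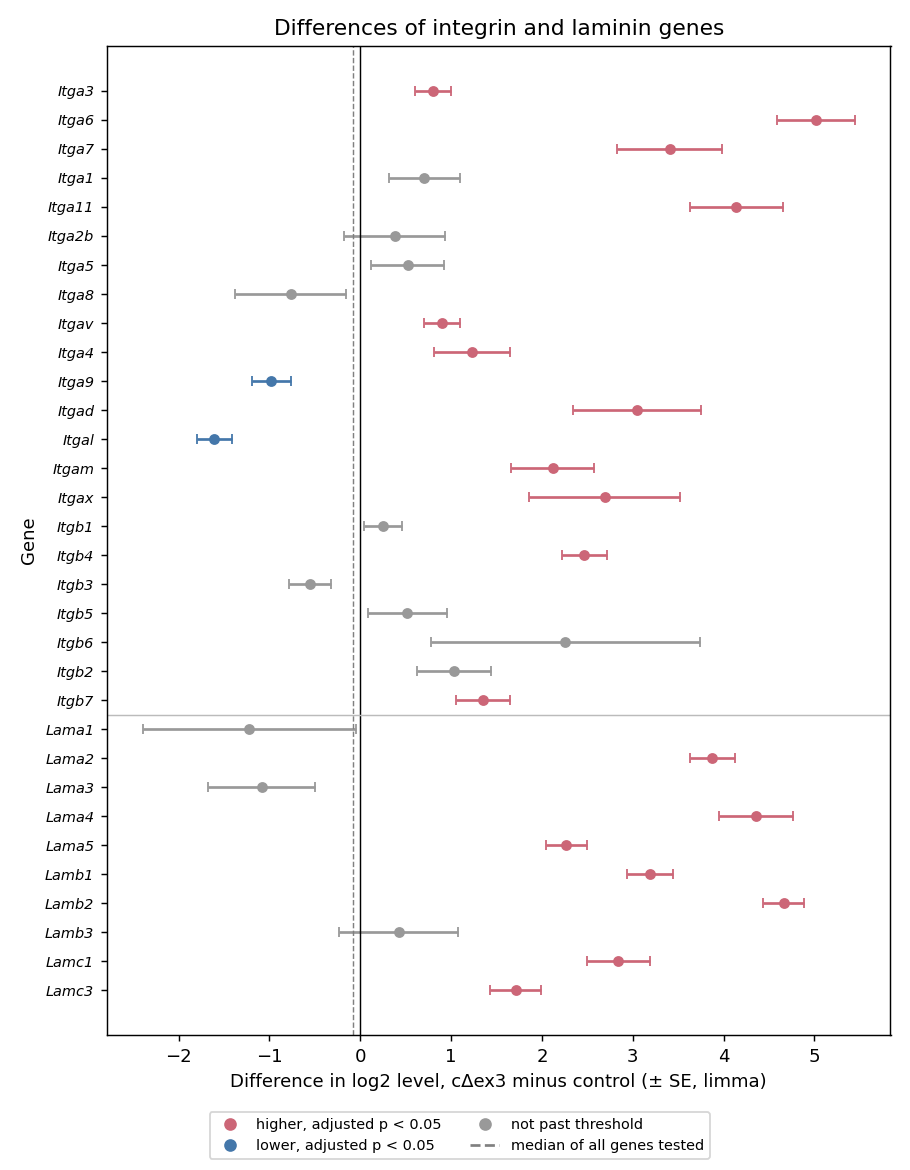
Difference in log2 level, cΔex3 minus control (horizontal axis, ± SE from limma), for the 22 tested integrin genes and 10 laminin genes; red marks genes called higher, blue lower, grey neither, and the dashed line is the median of all genes tested. Itga6 at 5.02 is the highest integrin value and Lamb2 at 4.66 the highest laminin value; Itgal at −1.61 is the lowest.

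Among the laminin α chains, Lama2, Lama4 and Lama5 were higher on every cΔex3 array, whereas Lama1 and Lama3 did not pass the threshold. Lama2, the chain of muscle, nerve and adipocyte basement membranes, stood at −1.65, −1.68 and −1.33 on the control arrays and at 2.67, 1.97, 2.65 and 2.00 on the cΔex3 arrays. It rose by 3.88 ± 0.25 (SE; limma, adjusted p = 4.53e-05). Lama4, found around blood vessels, fat and smooth muscle cells, read −1.48, −1.64 and −0.96 on control and 3.40, 2.98, 3.59 and 2.01 on cΔex3 arrays. The groups did not overlap, and Lama4 rose by 4.35 ± 0.40 (SE; limma, adjusted p = 0.000198). Lama5, the widespread α chain of epithelial and vascular basement membranes, read 0.19, 0.09 and 0.66 against 2.89, 2.62, 2.57 and 2.25 and rose by 2.27 ± 0.23 (SE; limma, adjusted p = 0.000268). Its rise was the smallest of the 3.

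Promoter windows from RefSeq (GRCm38.p6) were listed for 24 members. They are shown for the called laminin genes that had one, for Itga11, which had the largest rise among integrin genes with a window, and for the sort gene Itga8, so that genes that moved together can be compared with one that did not pass. Each window is the 250 bases before a RefSeq transcript start, 5′ to 3′ on the gene's strand. Capitals mark matches on either strand to the core bound by TCF/LEF, the DNA-binding partners of β-catenin (CTTTGA, or TCAAAG on the other strand), to the GC box (GGGCGG or CCGCCC) or to the TATA box (TATAAA or TTTATA); these letters do not overlap each other in the windows shown. The windows lie at chr10:27616943-27617192 (minus strand), chr2:180225860-180226109 (minus), chr12:31265043-31265292 (plus), chr9:108479612-108479861 (plus), chr9:62677605-62677854 (plus) and chr2:12301945-12302194 (minus), in the order given.
Lama2: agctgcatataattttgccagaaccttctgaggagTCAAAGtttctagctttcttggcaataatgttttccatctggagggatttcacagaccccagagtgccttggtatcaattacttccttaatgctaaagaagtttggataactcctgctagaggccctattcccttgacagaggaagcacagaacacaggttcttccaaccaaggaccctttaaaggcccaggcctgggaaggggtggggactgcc
Lama5: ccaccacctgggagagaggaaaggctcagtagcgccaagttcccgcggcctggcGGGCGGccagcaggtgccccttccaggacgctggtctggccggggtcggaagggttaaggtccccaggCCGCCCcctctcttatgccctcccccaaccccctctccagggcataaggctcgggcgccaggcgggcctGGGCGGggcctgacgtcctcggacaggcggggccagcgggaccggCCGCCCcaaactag
Lamb1: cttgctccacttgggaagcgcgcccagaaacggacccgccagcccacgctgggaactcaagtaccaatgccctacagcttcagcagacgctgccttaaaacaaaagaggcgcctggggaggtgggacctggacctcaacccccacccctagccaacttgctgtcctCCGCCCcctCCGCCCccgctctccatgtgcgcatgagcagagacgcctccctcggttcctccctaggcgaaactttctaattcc
Lamb2: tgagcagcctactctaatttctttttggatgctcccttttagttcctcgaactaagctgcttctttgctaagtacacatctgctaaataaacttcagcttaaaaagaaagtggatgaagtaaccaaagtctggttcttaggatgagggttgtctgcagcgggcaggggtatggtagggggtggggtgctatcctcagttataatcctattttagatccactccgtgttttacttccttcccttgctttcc
Itga11: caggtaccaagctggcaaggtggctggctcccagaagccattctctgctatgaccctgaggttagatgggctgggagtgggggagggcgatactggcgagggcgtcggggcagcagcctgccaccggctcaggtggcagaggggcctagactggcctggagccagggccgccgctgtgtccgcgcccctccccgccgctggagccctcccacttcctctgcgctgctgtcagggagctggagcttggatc
Itga8: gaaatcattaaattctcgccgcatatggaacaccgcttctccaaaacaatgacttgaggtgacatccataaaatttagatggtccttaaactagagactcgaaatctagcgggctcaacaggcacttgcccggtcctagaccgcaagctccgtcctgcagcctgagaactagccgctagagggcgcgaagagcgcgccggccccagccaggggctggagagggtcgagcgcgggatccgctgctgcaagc
The TCF/LEF core was found once, in Lama2, 215 bases before the transcript start used. Lama5 held 4 GC boxes and Lamb1 held 2, and no match was found in Lamb2, Itga11 or Itga8. The start used lay inside the annotated gene by 249 bases for Lama2, 147 for Lamb1 and 45 for Lama5. For Itga8 it was 41, for Lamb2 15 and for Itga11 0. The Lama2 core, the 2 Lamb1 GC boxes and the last Lama5 GC box thus lie after the gene's annotated start. Over all 32851 windows of this length in the table, 13.8% held the TCF/LEF core, 32.7% a GC box and 12.4% a TATA box; among the 27 windows of members the counts were 4, 9 and 0. A match describes these letters and is no evidence of binding.

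Lamb1 and Lamb2, the β chains of most laminins outside the epidermal type, both rose. Lamb2 read −2.995, −2.57 and −2.65 on control and 2.36, 1.85, 1.86 and 1.62 on cΔex3 arrays; it rose by 4.66 ± 0.23 (SE; limma, adjusted p = 1.68e-05), the largest laminin difference. Lamb1 read 1.33, 1.498 and 1.76 on control and 4.94, 4.93, 4.88 and 4.12 on cΔex3 arrays and rose by 3.19 ± 0.26 (SE; limma, adjusted p = 0.000111). The cΔex3 arrays 1 to 3 lay close together for Lamb1, and array 4 stood lower but above every control array. The γ chains described here were higher as well. Lamc1, the γ chain shared by most laminins, read 1.09, 1.06 and 1.33 against 4.26, 3.90, 4.65 and 3.17 and rose by 2.84 ± 0.35 (SE; limma, adjusted p = 0.000648). Lamc3, a γ chain of few tissues, read −2.46, −2.32 and −1.66 against 0.04, −0.51, −0.51 and −0.78 and rose by 1.71 ± 0.28 (SE; limma, adjusted p = 0.00227). Neither gene's groups overlapped. The chains Lama2, Lama4, Lama5, Lamb1, Lamb2 and Lamc1 were thus higher on 4 of 4 cΔex3 arrays. So were the summed markers of adipocytes, fibroblasts, mesothelium, platelets and dermal sheath with smooth muscle. The part of these cells in the laminin differences was not tested.

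Lama3 and Lamb3, chains of the epidermal laminin, did not pass the threshold. Lamb3 read −0.74, −0.57 and 0.01 against −1.504, 1.16, 0.85 and −0.56, a difference of 0.42 ± 0.66 (SE; limma, adjusted p = 0.612), with groups that overlapped. Lama3 read −0.45, −0.86 and −0.83 against −1.97, −2.69, −2.37 and −0.17, a difference of −1.09 ± 0.59 (SE; limma, adjusted p = 0.158). Lama3 lay below all control arrays on cΔex3 arrays 1 to 3 and above them on array 4, and without array 4 the difference was −1.63 (limma, adjusted p = 0.00191). Lama1, the α chain of embryonic basement membranes, followed the same order, at 1.51, 1.45 and 1.75 on control and 0.29, −0.86, −1.67 and 3.62 on cΔex3 arrays. Its difference of −1.22 ± 1.17 (SE; limma, adjusted p = 0.408) became −2.32 (limma, adjusted p = 0.00747) without array 4, and 0.47 (limma, adjusted p = 0.779) with the arrays of 1 mouse only. On cΔex3 array 4 the keratinocyte markers summed to 4.44, against 2.82 to 3.19 on the other cΔex3 arrays; their part in these values was not tested.

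**Figure D3:**
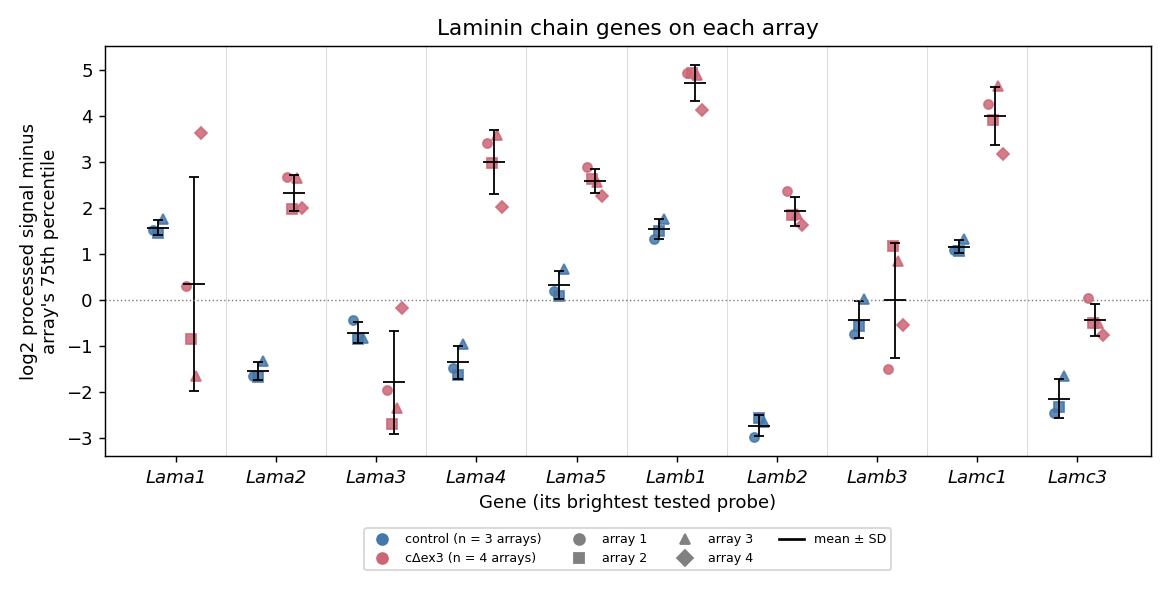
Levels of 10 laminin genes on each array (vertical axis, log2 processed signal minus the array's 75th percentile); blue points are control arrays, red points cΔex3 arrays, shapes give the array number, and bars are mean ± SD. For 7 genes all red points lie above all blue points, while Lama1, Lama3 and Lamb3 overlap.

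The laminin-binding integrins rose with the laminins, by very different amounts. Itga6, the α subunit of laminin receptors of epithelium, endothelium and Schwann cells, read 0.17, 0.06 and 0.41 on the control arrays and 5.09, 5.66, 6.00 and 4.18 on the cΔex3 arrays. It rose by 5.02 ± 0.43 (SE; limma, adjusted p = 0.000139), the largest difference of any member. Itga7, the main laminin-binding α subunit of muscle, read 1.28, 1.24 and 0.77 on control and 4.28, 5.31, 5.38 and 3.02 on cΔex3 arrays and rose by 3.40 ± 0.58 (SE; limma, adjusted p = 0.00275). In both genes cΔex3 array 4 was the lowest of its group and still above every control array. Itga3, which binds the laminins of epithelia, read −2.93, −2.89 and −3.22 against −2.25, −2.31, −2.45 and −1.84 and rose by 0.80 ± 0.20 (SE; limma, adjusted p = 0.0138). That call was lost without control array 3 (0.70; limma, adjusted p = 0.0513).

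The β partners of these subunits parted. Itgb4, which pairs with the α6 subunit in hemidesmosomes and in Schwann cells, read −2.43, −2.57 and −1.81 on control and 0.37, −0.17, 0.22 and 0.37 on cΔex3 arrays and rose by 2.47 ± 0.25 (SE; limma, adjusted p = 0.000287). Itgb1, the partner of most matrix-binding α subunits, read 1.62, 1.51 and 1.26 against 1.72, 1.85, 1.95 and 1.32, a difference of 0.25 ± 0.21 (SE; limma, adjusted p = 0.349). Its groups overlapped, and another probe of Itgb1 gave −0.20 ± 0.22 (SE). Of the markers of cells that carry Itga6 or Itgb4, 1 of 9 keratinocyte genes was higher, 6 of 8 endothelial genes were higher and 1 lower, and of 6 Schwann cell genes 2 rose and 2 fell.

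Of the collagen-binding α subunits, Itga11 rose and Itga1 did not pass. Itga11, the collagen I receptor subunit of fibroblasts, read −2.89, −3.47 and −2.42 on control and 1.102, 1.63, 2.09 and 0.03 on cΔex3 arrays and rose by 4.14 ± 0.51 (SE; limma, adjusted p = 0.000682). No cΔex3 array overlapped the control arrays. The fibroblast markers, which include the collagen I genes, were higher for 8 of 8 on the same arrays, with a median of 3.59, and their part in the Itga11 difference was not tested. Itga1, the collagen IV receptor subunit of smooth muscle and other mesenchymal cells, read −0.51, −0.57 and −0.58 against 0.24, 0.27, 0.93 and −0.84, a difference of 0.70 ± 0.39 (SE; limma, adjusted p = 0.169). It lay above all control arrays on cΔex3 arrays 1 to 3 and below them on array 4. Without array 4 the difference was 1.03 (limma, adjusted p = 0.00898), but a second probe of Itga1 gave −0.19 ± 0.51 (SE; limma, adjusted p over the tested probes with a gene name = 0.781).

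Of the α subunits whose receptors recognise the RGD sequence of fibronectin, vitronectin and related proteins, 1 of 4 passed the threshold. Itgav, the αv subunit, read −1.34, −1.70 and −1.56 on control and −0.41, −0.92, −0.74 and −0.44 on cΔex3 arrays and rose by 0.90 ± 0.20 (SE; limma, adjusted p = 0.00778). Its second probe gave 0.54 ± 0.23 (SE; limma, adjusted p over the tested probes = 0.0829), in the same direction but not past the threshold. Itga8, whose protein the sort excluded, was well above background on 7 of 7 arrays. It read −0.41, −0.21 and 0.18 on control and −0.12, −1.93, −1.89 and 0.29 on cΔex3 arrays, a difference of −0.77 ± 0.61 (SE; limma, adjusted p = 0.323). The values on cΔex3 arrays 2 and 3, each from 2 mice, lay below all others, and those on arrays 1 and 4, each from 1 mouse, lay within or above the control range. With the arrays of 1 mouse only the difference was 0.39 (limma, adjusted p = 0.292). Itga5, the fibronectin receptor subunit, read −2.83, −2.63 and −2.71 against −2.02, −1.90, −1.58 and −3.31, a difference of 0.52 ± 0.41 (SE; limma, adjusted p = 0.314). Here too array 4 alone was below the control arrays, and without it the difference was 0.89 (limma, adjusted p = 0.00611). Itga2b, the platelet fibrinogen receptor subunit, was well above background on 2 of 3 control arrays and read −4.74, −4.74 and −5.54 against −4.75, −4.93, −5.61 and −3.22 and differed by 0.38 ± 0.56 (SE; limma, adjusted p = 0.591). Among platelet markers Pf4 rose by 3.95, 1 was lower and 6 of 8 did not pass.

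Itgb1 aside, none of the 3 tested β subunits that pair with αv passed the threshold by limma (0 also at an unadjusted p under 0.05). Itgb5, which forms a vitronectin receptor, read 3.64, 3.67 and 3.83 on control and 3.78, 4.95, 4.89 and 3.30 on cΔex3 arrays, a difference of 0.52 ± 0.43 (SE; limma, adjusted p = 0.348). Arrays 2 and 3, from 2 mice each, lay above all others. The call depended on the scaling, since Itgb5 rose by 1.11 with normexp and quantile normalization (limma, adjusted p = 0.0379) and by 1.09 in the deposited series values. Itgb3, the β subunit of platelets, osteoclasts and activated endothelium, read 0.75, 0.88 and 0.81 against 0.44, 0.24, 0.62 and −0.26, a difference of −0.55 ± 0.23 (SE; limma, adjusted p = 0.0845). All cΔex3 arrays lay below all control arrays for Itgb3, and its second probe gave −0.97 ± 0.35 (SE). Itgb6, an epithelial subunit that activates latent TGF-β, was not well above background on any control array and was so on 3 of 4 cΔex3 arrays. Its cΔex3 levels were −3.83, −3.97, −8.17 and −1.42, with array 4 highest and array 3 below every control value. Itgb6 did not pass the threshold (limma, adjusted p = 0.236). It passed without array 3 (limma, adjusted p = 0.0178), but no size is given against control arrays not above background, and the gene entered the test through its cΔex3 arrays alone.

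The α subunits of leukocyte integrins went both ways. Itgal, the α subunit of LFA-1 on lymphocytes, read −1.53, −1.64 and −1.21 on control and −3.01, −3.21, −2.82 and −3.24 on cΔex3 arrays and fell by 1.61 ± 0.19 (SE; limma, adjusted p = 0.000558). Its second probe also fell, by 2.04. Itgam, the α subunit of the myeloid complement receptor, read 1.42, 1.64 and 2.71 against 4.41, 3.18, 3.89 and 4.70 and rose by 2.12 ± 0.46 (SE; limma, adjusted p = 0.00734) with its brightest probe. Its other 2 probes gave 1.47 ± 0.32 (SE; limma, adjusted p over the tested probes = 0.00733) and −0.42 ± 0.34 (SE; adjusted p = 0.326), so its probes disagreed on the direction. Itgax, a subunit of dendritic cells and macrophages, read −1.42, −2.53 and −0.18 against 1.06, 2.11, 2.54 and −0.45 and rose by 2.69 ± 0.83 (SE; limma, adjusted p = 0.0304). Its groups overlapped, and the call was lost without control array 1 (2.67) or 2 (2.11) or cΔex3 array 1 (2.77), 2 (2.42) or 3 (2.28), with limma's adjusted p from 0.0583 to 0.106. Itgad, a close relative of Itgam and Itgax, was well above background on 1 of 3 control and 4 of 4 cΔex3 arrays. The direction of its test was nearly fixed in advance, since it passed the filter through its cΔex3 arrays. It read −6.95, −7.91 and −5.17 against −3.21, −3.07, −3.48 and −4.78 and rose by 3.04 ± 0.70 (SE; limma, adjusted p = 0.00974), a size that uses control signals not well above background. It was 1.05 with normexp and quantile normalization and 1.09 in the deposited series values.

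The β partners on leukocytes lay higher on most cΔex3 arrays. Itgb7, which pairs with α4 and αE in lymphocyte homing, read −0.51, −0.81 and −0.07 on control and 1.12, 1.15, 1.05 and 0.24 on cΔex3 arrays and rose by 1.35 ± 0.30 (SE; limma, adjusted p = 0.00806). The groups did not overlap, but with the arrays of 1 mouse only the difference was 1.34 (limma, adjusted p = 0.0689). Itgb2, the common β subunit of the Itgal, Itgam, Itgax and Itgad receptors, read −0.20, −0.47 and 0.04 against 0.89, 1.27, 1.35 and −0.24, a difference of 1.03 ± 0.40 (SE; limma, adjusted p = 0.0679). It was higher on cΔex3 arrays 1 to 3 than on any control array but not on array 4, and without array 4 it was 1.38 higher (limma, adjusted p = 0.00225). The leukocyte markers as a list did not follow one direction. Of their 2 brightest genes, Csf1r read 5.76, 5.69 and 5.99 on control and 5.81, 5.90, 5.77 and 4.83 on cΔex3 arrays. Cd52, the other, read 3.36, 3.11 and 4.23 on control and 4.33, 4.57, 4.34 and 7.90 on cΔex3 arrays, highest on array 4. The part of leukocytes in the values of the integrins above was not tested.

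Itga4 and Itga9, related subunits that bind VCAM-1, fibronectin or tenascin, moved in opposite directions. Itga9 read 1.04, 1.14 and 1.48 on control and 0.62, 0.06, 0.27 and 0.01 on cΔex3 arrays and fell by 0.98 ± 0.21 (SE; limma, adjusted p = 0.00785). Every cΔex3 array was below every control array, but with the arrays of 1 mouse only the difference was −0.77 (limma, adjusted p = 0.119). Itga4, a subunit of leukocytes and neural crest cells, read −0.38, −0.73 and 0.48 against 1.55, 0.90, 1.42 and 0.22 and rose by 1.23 ± 0.42 (SE; limma, adjusted p = 0.0423). Its groups overlapped at cΔex3 array 4 and control array 3. The call was lost without control array 1 (1.14) or 2 (0.97) or cΔex3 array 1 (1.05), 2 (1.27) or 3 (1.095), with limma's adjusted p from 0.0730 to 0.143.

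**Figure D4:**
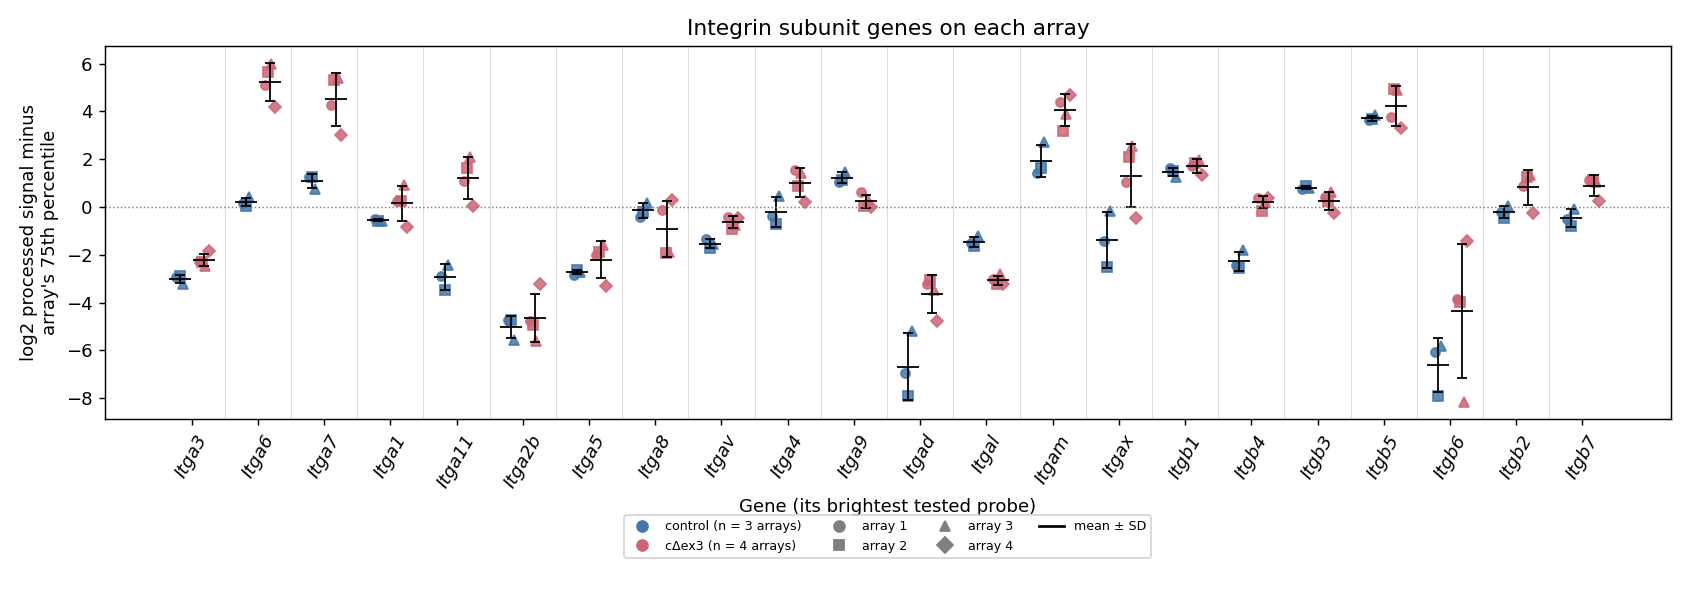
Levels of the 22 tested integrin genes on each array (vertical axis, log2 processed signal minus the array's 75th percentile), α subunits first; blue points are control arrays, red points cΔex3 arrays, shapes give the array number, and bars are mean ± SD. Itga3, Itga6, Itga7, Itga11, Itgad, Itgam, Itgav, Itgb4 and Itgb7 have all red points above all blue points. Itga9, Itgal and Itgb3 have all red points below all blue points.

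Several members were read by more than 1 probe, 11 in all, 9 of them with more than 1 tested probe. Lama2 gave 3.88 and 4.04, and Lama3 gave −1.09 and −0.95, the second past the threshold over probes (limma, adjusted p = 0.0379). Probes of Itga1, Itgam and Itgb1 differed in sign. The second probe of Itga4 was not well above background on any control array, so the size of its difference is not measured.

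**Figure D5:**
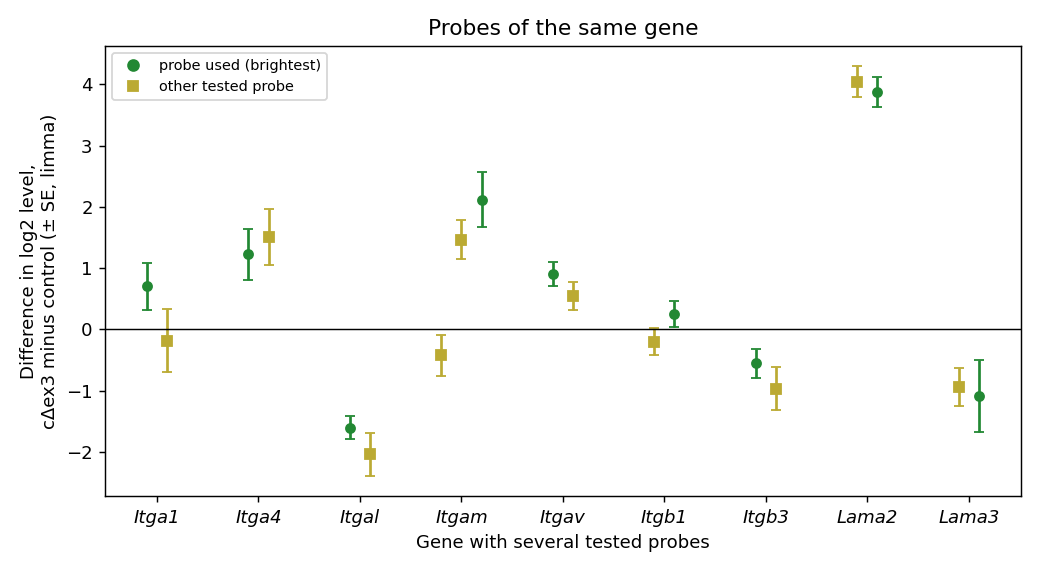
Differences in log2 level, cΔex3 minus control (vertical axis, ± SE from limma), for each tested probe of the 9 members with more than 1; green circles are the brightest probe, used for the gene, and yellow squares are the others. Itga1, Itgam and Itgb1 have probes on both sides of 0, and the other 6 genes have all probes on one side; the second Itga4 probe is drawn at its fitted value although no control array showed it well above background.

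Members outside the test were accounted for as follows. Itga10 and Itgae had no probe named here. Itga2, a collagen receptor subunit of epithelium and platelets, Itgb8, a subunit that activates latent TGF-β, and Itgb2l, a relative of Itgb2, each had probes too dim to be tested. Itga2 read −7.06, −6.53 and −5.75 on control and −6.41, −6.22, −6.07 and −6.13 on cΔex3 arrays, and Itgb8 read −7.93, −7.64 and −7.68 on control and −6.57, −8.12, −8.37 and −6.39 on cΔex3 arrays. Itgb2l was well above background on 1 control array with one of its probes and on 2 cΔex3 arrays with the other. No direction is given for these genes.

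Other genes of the same system were counted from lists chosen for their role. Of 23 partners of laminin in the basement membrane, 15 were higher and 2 lower, with a median of 2.23, against 24% and 29% of all genes. Egflam (pikachurin) was not well above background on any control array and was on 4 of 4 cΔex3 arrays, through which alone it entered the test, so the direction of its test was fixed. Its level was at least 2.44-fold higher (limma, adjusted p of the fitted difference = 3.66e-05), which sets the cΔex3 mean against the control mean of the lowest signal well above background, or the probe's own where that was higher. Smoc2 rose by 3.60 and the collagen IV chain gene Col4a5 rose by 2.74, while Col18a1, whose collagen is abundant in liver, fell by 3.19 ± 0.19 (SE; limma, adjusted p = 3.28e-05). The 6 laminin receptors that are not integrins had a median of −1.59, with 1 called higher and 4 called lower; 2 were called higher without cΔex3 array 4 and 2 to 3 with the other normalizations. Bcam, the Lutheran receptor for laminins with the α5 chain, rose by 3.26, and the syndecan genes Sdc1, Sdc2 and Sdc4, cell surface proteoglycans also made by hepatocytes, fell by 2.67, 2.46 and 3.17. The hepatocyte markers had a median difference of −8.30 on the same arrays. The part of hepatocytes in the syndecan and Col18a1 differences was not tested.

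Integrin ligands other than laminins were higher for 13 and lower for 6 of 25 tested, with a median of 1.31. Vitronectin (Vtn), a plasma protein of the liver and ligand of αv integrins, fell by 7.13 ± 0.22 (SE; limma, adjusted p = 7.37e-06), from 8.06, 8.39 and 7.75 on control to 1.06, 1.11, 0.94 and 0.63 on cΔex3 arrays. Tgfb3 and Ltbp1, parts of the latent TGF-β complex that αv integrins bind, rose by 3.86 and 3.24, and the collagen I gene Col1a2 by 3.72. The list thus held both plasma proteins and fibroblast products. Of 31 adaptors and other proteins that bind integrins, 14 were higher and 2 lower, with a median of 0.60. Flna (filamin A) rose by 2.86, Tgfb1i1 (Hic-5, a paxillin relative) by 3.18, Tln2 (talin 2) by 2.20 and Cd151, a tetraspanin that binds laminin-binding integrins, by 1.73. Without control array 1 the adaptors counted 9 higher and 1 lower, and 1 was also the count lower without control array 2 or cΔex3 array 1 or 3.

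Array 4 of the cΔex3 group differed from the other 3 in many members. It was the lowest cΔex3 array for 21 of 33 tested members and the highest for 8. Among the 19 members called higher it was the lowest for 13. How often array 4 was lowest or highest over all genes was not computed. Adipocyte and mesothelial markers were also lowest on it within the group, at 9.78 and 3.87, as were fibroblast and endothelial markers, at 8.21 and 4.46. The leukocyte sum was highest on it, at 8.21, through Cd52 (7.90), while Csf1r was lowest there (4.83). Their part was not tested. Without this array 14 integrin genes were higher and 2 lower, and 8 laminin genes higher and 2 lower, the latter being Lama1 and Lama3. Calls rose over all 18022 genes too, from 4332 to 4920 higher and from 5235 to 5567 lower.

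The arrays came from 1 slide. The positions in the scanner headers put control arrays 1 and 2 and cΔex3 array 1 in the upper row and the other 4 in the lower row. The positions in the files' names differ from these and put all control arrays in the upper row and all cΔex3 arrays in the lower row; if they hold, row and group cannot be told apart. Each array's group was taken from the deposit record, and the row results that follow use the header positions. With the row as a covariate 9 integrin and 8 laminin genes were higher and 2 integrin genes lower. Over all 18022 genes the counts were then 3553 higher and 4368 lower. All 21 called members kept their direction within the upper row and within the lower row; this was nearly fixed in advance, because 19 of the 21 did not overlap between the groups. With the upper row alone 18 of the 21 passed the threshold, and with the lower row alone, with 1 control array assumed to vary like the others, 2 passed: Lama2 and Lamb2, at 3.54 and 4.43.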

How the data were processed

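RNA of sorted cells was hybridised with Cy3 to 1-colour Agilent SurePrint G3 Mouse GE 8x60K arrays, 3 control and 4 cΔex3. Per the file headers, spot intensity was extracted with Agilent Feature Extraction 10.7.1.1, which subtracts background and detrends within the array; flags of spots well above background were taken as deposited. The authors' deposited series table holds log2 values; how they made it is not stated in the sources used here, and it correlated at 0.9999 per array with normexp and quantile normalization of the scanner signals (column medians 7.52 to 7.53).

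From the processed signal, log2 minus each array's 75th percentile was taken, outlier and control spots were left out, and probes were kept that 3 or more of the 7 arrays showed well above background. Of 29796 probes with a RefSeq accession, 28020 were named through the RefSeq gene table; 42462 of 55681 probes passed the background filter with or without a name. A gene took its brightest probe. Differences, cΔex3 minus control, were tested with limma 3.58.1 (R 4.3.3; lmFit and eBayes) on 18022 genes with Benjamini-Hochberg adjustment and a threshold of 0.05, after the code was tested on simulated data. Precision is limited by the number of arrays; 0 spots were saturated.

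Members and lists were chosen with earlier results of these data known. Named in full are called members whose groups do not overlap, the genes of the sort (Itga8, Cd34, Alpl) and members whose probes disagree; of each pathway list up to 4 genes with the smallest p; and of each cell type list its summed level and 2 brightest genes. Other members are given so that each is accounted for in the counts; 3 genes that this rule names are not reported here. The alternatives were other normalizations, filters and probe rules, each array left out, arrays of 1 mouse only, the slide row and a replicate block.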

Additional observations from a re-analysis of the deposited data

Results flagged for a closer look

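In each of the 33 tested members the 4 cΔex3 arrays were checked for an array far from the other 3, by the gap to the nearest array as a share of the range; chance marks about 1 in 20 such groups. Lamb1 on cΔex3 array 4, at 4.12, lay far below the other 3 arrays of its group. Itgb7 on cΔex3 array 4, at 0.24, did so too. No other member was marked, so the share marked is near the 1 in 20 that chance gives.

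Among probes too dim to be tested, a probe of Itga2 was well above background on 2 cΔex3 arrays and 0 control arrays. The same counts, 2 and 0, held for a probe of Itgb8 and for a probe of Itgb2l. Of all spots, 81.6% and 82.7% were well above background on cΔex3 arrays 1 and 4. The share was 69.0% and 70.8% on cΔex3 arrays 2 and 3 and 69.3% to 71.5% on the control arrays. The share of all probes with counts of 2 and 0 was not computed, so these counts give no direction. Itga2 in fact read highest on control array 3, at −5.75.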

How the results depend on the processing

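Of the 21 called members, 0 changed direction under any of the 18 alternatives, and 16 kept their call under all 16 other than 1 slide row alone. The other 5 were Itga3, Itga4, Itga9, Itgax and Itgb7. Where arrays were left out, the kept direction was nearly fixed in advance, because 19 of the 21 did not overlap between the groups. The alternative filters left the differences of the called members unchanged. Normexp with quantile normalization, quantile normalization alone and the deposited series values moved the median of all genes from −0.08 to 0.11, 0.13 and 0.11; all 21 calls held under each. Leaving out arrays in turn gave 9 to 14 integrin genes higher and 2 lower, and 8 laminin genes higher and 0 to 2 lower. Over all genes the counts were 3242 to 4920 higher and 3994 to 5567 lower. Itga2b then ranged from −0.092 to 0.71, negative without cΔex3 array 4. With arrays of 1 mouse only, 7 integrin genes were higher and 1 lower. Calls fell over all genes too, to 2986 higher and 3751 lower from 4332 and 5235 in the main fit. With these arrays differences changed sign for Itga8 (0.39), Itgb1 (−0.046), Itgb5 (−0.11), Lama1 (0.47) and Lamb3 (−0.37). With the slide row as covariate Lamb3 was −0.15. With the lower row alone (1 control array), 0 integrin genes were higher and 0 lower, 2 laminin genes were higher, and 524 of all genes were higher and 715 lower; fewer arrays were tested. With the upper row alone, chosen after seeing the data, 1 integrin and 2 laminin genes were lower, Itga2b was −0.014, Itga8 0.19 and Lamb3 −0.85. For the changes of sign the cause was not tested.

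Replicate numbers showed no sign of pairing the arrays: deviations of same-numbered arrays correlated at −0.009, −0.0009 and 0.018. With so few pairs, a pairing is not excluded. With the replicate block, 14 integrin and 8 laminin genes were higher, 2 and 2 lower, 4491 and 4979 of all genes higher and lower, and Itga2b was −0.092; number 4 occurs only among cΔex3 arrays, so the block removes that array from the comparison. A probe not well above background has only a bound, which limits Itga2, Itgb2l, Itgb6, Itgb8 and Itgad.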
